A study of Mus musculus with 2 samples.

Results

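The keratin genes make up 2 large clusters of the mouse genome, and their open chromatin was read in the embryonic heart. Members were taken as the autosomal protein-coding genes whose symbol is Krt followed by a number, with the keratin-associated protein genes (Krtap) left out, in the GENCODE M21 annotation of mm10. The rule found 53 genes of the 20807 autosomal protein-coding genes, 27 on chromosome 11 and 26 on chromosome 15. The members were split into the 4 keratins of simple epithelia (*Krt7*, *Krt8*, *Krt18* and *Krt19*) and the other 49, which were further listed as 16 keratins of stratified epithelia, 8 of the inner root sheath of the hair follicle, 15 of the hair shaft and 10 that belong to none of these lists.

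Accessible chromatin was profiled by ATAC-seq, in which a transposase inserts sequencing adapters into open DNA, in whole hearts of wildtype FVB mouse embryos at E11.5. The only group had 2 replicates, each made from 2 hearts, and no treatment or mutant was part of it. The lists held 118027 peaks in replicate 1 and 114783 in replicate 2, each with a fold enrichment, the authors' ratio of the read pileup at the summit over a genome-wide background. The read totals behind the lists are unknown, so no counting interval is given, and the error of a value is the difference between its replicates.

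Keratins are the intermediate filament proteins of epithelial cells, and a filament forms from pairs of 1 type I and 1 type II keratin. Simple epithelia and the mesothelia, to which the epicardium of the heart belongs, use *Krt8* and *Krt7* (type II) with *Krt18* and *Krt19* (type I). Stratified epithelia use other pairs, such as *Krt5* with *Krt14* in basal cells and *Krt1* with *Krt10* above them, while hair keratins build the hair shaft. Type I genes lie together on chromosome 11 and type II genes on chromosome 15, and *Krt18* is the type I gene that sits beside *Krt8* in the type II cluster. Cardiomyocytes use desmin, an intermediate filament protein of another class.

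The promoter sequences of the members with a defined role serve as a view of the DNA behind the comparison of simple-epithelial and stratified keratins. The lines show the 250 bases before the RefSeq start in GRCm38.p6, 5′ to 3′ on the strand of the gene, with every TATAAA and every GGGCGG, on either strand, in capitals. The RefSeq promoter table held 36 of the 53 members in 37 entries. Its *Krt14* entry is that of a shorter transcript and not of the principal one, and *Krt19* and *Krt1* had no entry.
Krt8 promoter, chr15:102004343-102004592, minus strand: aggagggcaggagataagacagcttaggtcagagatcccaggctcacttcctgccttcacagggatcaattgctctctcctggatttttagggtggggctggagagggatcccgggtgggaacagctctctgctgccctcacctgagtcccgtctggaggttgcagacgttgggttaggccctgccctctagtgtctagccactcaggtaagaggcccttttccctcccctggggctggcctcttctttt
Krt18 promoter, chr15:102027966-102028215, plus strand: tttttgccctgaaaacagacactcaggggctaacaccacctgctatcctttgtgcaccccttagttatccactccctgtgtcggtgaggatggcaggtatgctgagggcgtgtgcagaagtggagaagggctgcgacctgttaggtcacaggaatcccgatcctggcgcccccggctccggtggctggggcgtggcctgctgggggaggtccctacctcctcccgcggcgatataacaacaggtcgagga
Krt7 promoter, chr15:101412153-101412402, plus strand: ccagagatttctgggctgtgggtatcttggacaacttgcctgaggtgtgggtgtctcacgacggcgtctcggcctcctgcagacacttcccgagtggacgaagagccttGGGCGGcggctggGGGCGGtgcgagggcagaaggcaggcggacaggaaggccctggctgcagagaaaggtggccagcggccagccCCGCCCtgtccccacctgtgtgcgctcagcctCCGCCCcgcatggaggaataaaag
Krt5 promoter, chr15:101712906-101713155, minus strand: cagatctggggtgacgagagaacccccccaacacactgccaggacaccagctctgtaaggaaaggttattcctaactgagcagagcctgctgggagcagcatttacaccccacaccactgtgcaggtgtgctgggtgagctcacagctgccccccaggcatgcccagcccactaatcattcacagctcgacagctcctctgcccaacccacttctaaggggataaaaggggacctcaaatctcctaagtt
Krt14 promoter, chr11:100206031-100206280, minus strand: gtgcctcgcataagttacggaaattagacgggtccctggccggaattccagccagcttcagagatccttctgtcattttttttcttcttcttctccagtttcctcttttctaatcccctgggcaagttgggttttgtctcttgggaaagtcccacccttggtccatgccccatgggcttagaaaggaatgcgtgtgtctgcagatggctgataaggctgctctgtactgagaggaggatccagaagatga
Krt10 promoter, chr11:99389365-99389614, minus strand: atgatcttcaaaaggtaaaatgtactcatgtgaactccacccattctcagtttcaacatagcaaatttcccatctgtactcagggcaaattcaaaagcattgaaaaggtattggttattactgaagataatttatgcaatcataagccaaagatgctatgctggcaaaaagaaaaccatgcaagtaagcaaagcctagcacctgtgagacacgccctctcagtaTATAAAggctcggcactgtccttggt
*Krt7* carried 4 GC boxes and the GC content of its 250 bases was 66.0%, against 39.6% for *Krt10*, which carried 1 TATA box that began 26 bases before the start. None of these letters was found in the windows of *Krt8*, *Krt18*, *Krt5* and *Krt14*. Over the whole table window, 250 bases before to 50 after a start, TATAAA occurred on either strand in 19 of 37 keratin entries (51.4%) against 13.6% of all 32851 entries. GGGCGG occurred in 2 of 37, *Krt7* and *Krt75* (5.41%), against 35.7% of all entries. Neither string contains the other, and a match only describes the letters in the window.

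The DNA that was open at or near keratin starts was of several kinds. The lines show the 201 bases centred on the replicate 1 summit of the highest shared region of each promoter where this stretch held no untranslated sequence, and of the strongest region of both clusters, on the plus strand of GRCm38, with matches on either strand to the AP-1 motif TGANTCA, the TEAD motif GGAATG and the GATA factor motif AGATAA in capitals.
Region between Krt78 and Krt8, chr15:101977427-101977627, plus strand: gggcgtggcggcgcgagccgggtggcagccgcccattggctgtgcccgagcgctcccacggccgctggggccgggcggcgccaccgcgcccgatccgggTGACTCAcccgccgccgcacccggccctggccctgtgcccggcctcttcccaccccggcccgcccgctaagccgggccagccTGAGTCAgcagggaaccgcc
Krt8 intron, chr15:102003225-102003425, plus strand: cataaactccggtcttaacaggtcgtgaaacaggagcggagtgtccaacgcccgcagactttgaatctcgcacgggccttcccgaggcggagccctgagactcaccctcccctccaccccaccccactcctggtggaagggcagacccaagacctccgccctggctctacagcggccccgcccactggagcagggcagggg
Krt7 upstream, chr15:101410822-101411022, plus strand: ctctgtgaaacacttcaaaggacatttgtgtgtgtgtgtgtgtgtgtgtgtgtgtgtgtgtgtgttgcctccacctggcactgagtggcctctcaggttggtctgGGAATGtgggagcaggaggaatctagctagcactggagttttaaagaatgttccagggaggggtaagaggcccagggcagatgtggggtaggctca
Krt80 upstream, chr15:101370445-101370645, plus strand: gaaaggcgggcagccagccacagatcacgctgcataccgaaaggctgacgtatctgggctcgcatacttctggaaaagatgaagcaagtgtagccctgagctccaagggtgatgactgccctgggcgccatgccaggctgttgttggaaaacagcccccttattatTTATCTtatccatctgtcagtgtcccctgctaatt
Krt13 intron, chr11:100120361-100120561, plus strand: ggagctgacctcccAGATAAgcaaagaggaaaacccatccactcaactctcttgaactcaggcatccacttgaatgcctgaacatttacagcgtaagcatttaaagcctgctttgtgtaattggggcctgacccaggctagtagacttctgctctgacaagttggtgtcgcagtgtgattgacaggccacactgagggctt
Krt10 coding exon, chr11:99385977-99386177, plus strand: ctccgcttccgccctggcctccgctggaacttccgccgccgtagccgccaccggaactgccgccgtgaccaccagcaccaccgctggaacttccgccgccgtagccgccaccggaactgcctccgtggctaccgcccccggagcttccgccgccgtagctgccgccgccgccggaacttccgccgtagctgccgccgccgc
Krt1 exons 8 and 9 with the intron between, chr15:101846198-101846398, plus strand: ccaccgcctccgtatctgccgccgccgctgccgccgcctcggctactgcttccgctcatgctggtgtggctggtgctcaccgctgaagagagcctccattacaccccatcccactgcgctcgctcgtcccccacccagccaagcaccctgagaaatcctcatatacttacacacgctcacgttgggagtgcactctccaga
Krt79 last exon and intron, chr15:101929883-101930083, plus strand: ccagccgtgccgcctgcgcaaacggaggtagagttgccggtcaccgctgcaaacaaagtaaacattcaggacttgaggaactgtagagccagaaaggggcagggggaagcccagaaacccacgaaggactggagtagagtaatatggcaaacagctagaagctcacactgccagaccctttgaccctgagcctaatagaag
The stretch between *Krt78* and *Krt8* was the richest in GC (80.6%), with 27 CpG dinucleotides and 2 AP-1 matches. The *Krt10* stretch came next with 75.1% GC and 31 CpG dinucleotides, and it lies within coding exon 7. The *Krt7* stretch had no CpG dinucleotide and held a run of TG repeats. Among all 96639 autosomal shared regions, the same 201 bases held an AP-1 match in 8.42%, a TEAD match in 14.7% and a GATA match in 17.2%. Among the 42 shared regions in and around the keratin clusters the counts were 6 (14.3%), 9 (21.4%) and 6 (14.3%).

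Few keratin promoters had a region called in the heart. A shared region, a stretch called as a peak in both replicates, lay within 1 kb of an annotated transcript start in 11 of 53 keratin genes (20.8%), whereas 68.8% of all autosomal protein-coding genes had one. All 4 simple-epithelial keratins were among them, against 7 of the 49 others. At a q-value limit of 1e-10 the counts fell to 2 simple-epithelial and 2 other keratins, 4 in all (7.55%), against 63.7% of all genes. Without that limit, no hair keratin (0 of 15) and no inner root sheath keratin (0 of 8) had such a region, 3 of the 16 stratified keratins did (*Krt1*, *Krt10* and *Krt13*), and 4 of the 10 unlisted keratins did (*Krt20*, *Krt79*, *Krt80* and *Krt222*). Both lists gave the same count, 11 members in replicate 1 and 11 in replicate 2, and no member had a start peak in 1 replicate only. Since the samples form a single group and genes are not replicates, the classes were compared by counts and without a test.

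**Figure D1:**
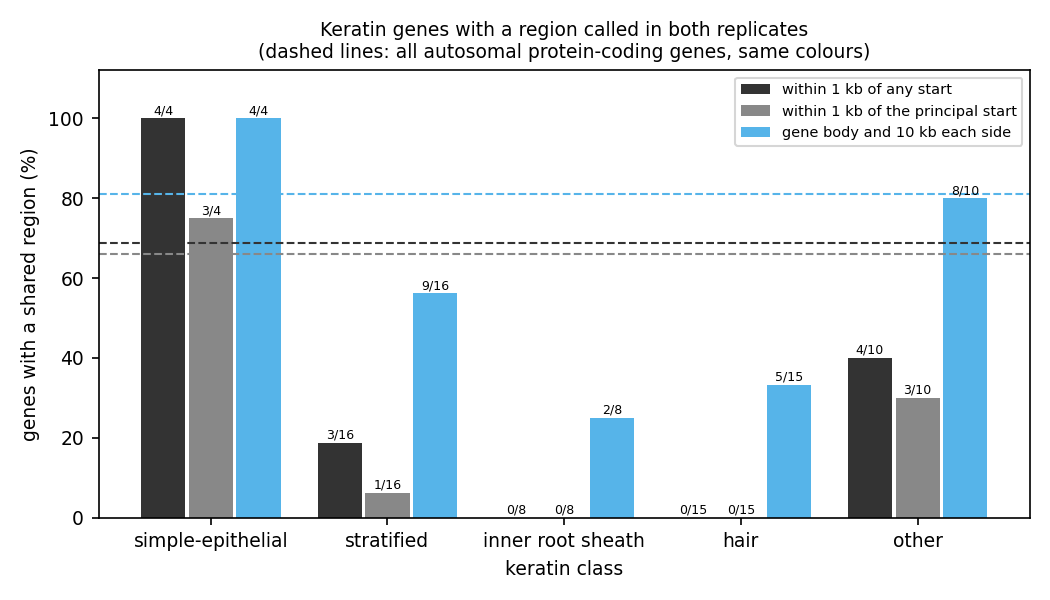
Percent of the genes in each keratin class (x axis) with a shared region within 1 kb of any annotated start (black bars), within 1 kb of the principal start (grey bars) or in the gene body and 10 kb on each side (blue bars); the fraction above each bar is the count, and dashed lines give the share over all autosomal protein-coding genes in the same colour. The simple-epithelial class stood at 4 of 4, 3 of 4 and 4 of 4, and the hair and inner root sheath classes had no promoter region.

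Where the regions lay relative to the starts differed among the simple-epithelial keratins. *Krt19*, the smallest of the keratins and a marker of mesothelium and simple ducts, had a region over its start, chr11:100145551-100146392, of fold enrichment 9.78 in replicate 1 and 8.55 in replicate 2. A second, weaker region of 4.35 and 4.53 lay in an intron 814 bp from the same start. *Krt18* had a region over its start and the first exon, chr15:102028062-102028413, of 5.98 and 5.03. Both genes were therefore open at the start itself in both replicates.

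*Krt8*, the type II partner of *Krt18*, had no region over its start. Its region, chr15:102002894-102003552, lay in an intron 930 bp downstream of the only annotated GENCODE start, with fold enrichment 9.51 and 9.30. The RefSeq start of *Krt8* lies 140 bp further into the gene than the GENCODE start. *Krt7* had its region, chr15:101410797-101411025, 1377 bp upstream of the start of its principal transcript and 18 bp from the start of a shorter, alternative transcript, inside the antisense gene *Gm671*. Its values, 3.80 and 3.77, were the lowest mean of the 11 genes. When windows were placed only at the starts of principal transcripts, an alternative chosen after the data were seen, 7 members had a shared region (13.2%, against 66.1% of all genes), and *Krt7* was the simple-epithelial member without one.

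Among the other keratins, 3 of the 7 had their region at an internal start and none near the principal one. In *Krt10*, a suprabasal keratin of skin, the region chr11:99385855-99386674 covered coding exons 6 and 7 of 8 and lay 2690 bp from the principal start, with 13.6 in replicate 1 and 13.1 in replicate 2. In *Krt1*, the partner of *Krt10*, the region covered exons 8 and 9 of 9, 4260 bp from the principal start, and its values of 4.89 and 7.79 differed more between replicates than those of *Krt10*. In *Krt79*, regions at the edge of the last exon (3.53 and 5.03) and in the intron beside it (4.35 and 3.77) were counted through a transcript with a retained intron. These 3 genes had no region within 1 kb of a principal start.

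The remaining 4 had a region within 1 kb of the principal start. *Krt80* had the highest mean of all keratin promoters, 14.7 in replicate 1 and 12.8 in replicate 2, in the region chr15:101370145-101370792. The replicate 1 summit lay 383 bp upstream of the start, and the region also overlaps the antisense gene *Gm35853*. *Krt222*, a gene at the outer end of the type I cluster, had 4.07 and 5.53 over its start, where RefSeq also has the non-coding gene *Gm32385*. *Krt20*, a keratin of intestinal and urothelial cells, had 5.70 and 3.52 over its start. *Krt13*, a keratin of internal stratified epithelia, had 6.25 and 5.28 in an intron 947 bp from its principal start. This region also covers the internal start of an alternative *Krt13* transcript that is not annotated as protein-coding. Just inside the 1 kb limit were thus *Krt8* and *Krt13*, and just outside it, by distance to a principal start, were the *Krt7* region and a region of 9.51 and 7.54 that lay 1513 bp upstream of *Krt79*.

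Keratin promoters with a region ranked low among all promoters with one. Over all 14309 promoters with a shared region, the mean fold enrichment of both replicates had a median of 24.6 and a middle range from 14.3 to 33.7. All 11 keratin promoters lay in the lowest 25% of that distribution, from *Krt80* at percentile 23.8 and *Krt10* at 22.9 through *Krt8* at 14.4, *Krt19* at 13.9 and *Krt18* at 5.02 to *Krt7* at 0.391. The median of the 4 simple-epithelial promoters was 7.33 and that of the 7 others 5.76. In the order of means, *Krt80* and *Krt10* overlapped each other, *Krt8* and *Krt19* overlapped each other, and the lower 7 formed a series in which each neighbour overlapped the next. The values of the replicates did not overlap only between *Krt10* and *Krt8* and between *Krt19* and *Krt1*. For comparison, the higher replicate exceeded the lower by a median factor of 1.22 over all shared regions with a mean of 4 to 7.

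**Figure D2:**
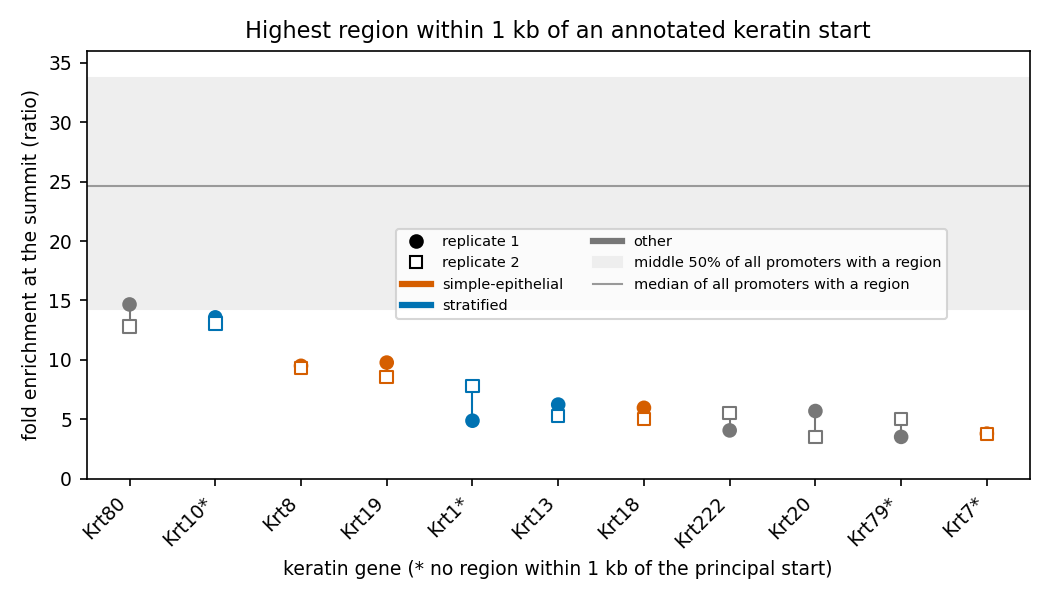
Fold enrichment at the summit (y axis, a ratio) of the highest shared region within 1 kb of an annotated start in each of the 11 keratin genes (x axis, ordered by mean), with filled circles for replicate 1, open squares for replicate 2 and colours for the keratin class; the grey band and line give the middle range and median of all promoters with a region. The keratin means fall from 13.7 at *Krt80* to 3.79 at *Krt7* and sit below the band. Genes marked with an asterisk had no region within 1 kb of the principal start.

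Distances from keratin starts to the nearest shared region varied widely within the classes. Over all members of a class, with or without a promoter region, the median distance from the principal start to the nearest shared region was 9.2 kb for stratified, 18.5 kb for hair and 29.4 kb for inner root sheath keratins, against 0.5 kb for the simple-epithelial members and 0.0 kb for all autosomal protein-coding genes, whose upper quartile was 8.1 kb. The longest distances were those of *Krt6b* (92389 bp) and *Krt6a* (78369 bp), keratins of wounded skin, followed by *Krt25* of the inner root sheath (62904 bp), the hair keratin *Krt31* (60588 bp) and *Krt5* of basal cells (59778 bp). Others without a promoter region were nearer, such as the hair keratins *Krt82* (2463 bp) and *Krt40* (3091 bp) and the stratified keratins *Krt4* (5122 bp) and *Krt16* (5450 bp). *Krt14*, the partner of *Krt5*, was also nearer, with an intronic region of 6.52 and 4.53 that lay 3784 bp from its start. A peak in replicate 2 only, of 4.02, lay 8544 bp from the *Krt5* start.

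In the wider window of the gene body and 10 kb on each side, 28 of 53 members had a shared region (52.8%), against 81.1% of all autosomal protein-coding genes. All 4 simple-epithelial members, 9 of 16 stratified, 2 of 8 inner root sheath, 5 of 15 hair and 8 of 10 unlisted keratins were among them. At the q-value limit of 1e-10 the count was 11 (20.8%, against 75.2% of all genes). In the gene body alone it was 17 (32.1%, against 73.6%). The window is wider for longer genes, and the part of gene length in these shares was not tested. Because the genes stand close together, the same region was often counted for several genes, and 12 of the 42 regions in and within 10 kb of the clusters fell into more than 1 window. The region chr11:100254352-100254772 (5.16 and 6.79), outside any annotated gene, was counted for the stratified keratins *Krt16* and *Krt17* and for *Krt42*. The stratified keratin *Krt15* was counted through both regions of *Krt19* and through a region of 5.16 and 5.03 near *Krt13*, and has none closer than 9004 bp to its own start. The stratified keratin *Krt4* was counted through the regions on *Krt79*. A single region of a window, chr11:99229652-99231278 with 15.5 and 16.8, lay at the start of a protein-coding gene outside the keratin family, the chromatin remodelling subunit gene *Smarce1*, beside *Krt222*.

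A large share of the cluster regions lay on keratin coding sequence. Of the 42 regions, 13 overlapped coding sequence (31.0%), against 14.3% of all autosomal shared regions. Only 4 of these were on first exons, at the starts of *Krt18*, *Krt19*, *Krt20* and *Krt222*, and 7 reached into the last exon of the gene. In 10 of the 13 the replicate 1 summit itself lay in an exon, and in *Krt1*, *Krt79* and *Krt222* it did not. The last-exon regions were those of *Krt1* and *Krt79*, already described, and of the stratified keratin *Krt77* (4.89 and 5.03), the hair keratins *Krt83* (5.16 and 6.54) and *Krt86* (3.26 and 3.52), and *Krt88* (5.43 and 4.27) and *Krt90* (8.15 and 6.79). The hair keratin *Krt40* had a region on exon 5 of 7 (3.53 and 3.27). These exon regions were how *Krt81*, *Krt82* and *Krt75*, neighbours of *Krt88* and *Krt90*, came to be counted in the wider window. The 13 regions on coding sequence had a median GC content of 59.1%, all 42 had 56.3%, and all autosomal shared regions had 50.0%. The parts of GC content and of gene density in the coding overlap were not tested. CpG observed over expected was 0.961 in the *Krt10* region, 0.655 in the *Krt1* region and 0.633 in the *Krt77* region.

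The clusters differed in how many regions they held. The type I cluster on chromosome 11, from *Krt222* to *Krt42*, spans 1037.1 kb with 68 protein-coding genes and held 15 shared regions, 1.45 per 100 kb. The type II cluster on chromosome 15, from *Krt80* to *Krt18*, spans 684.6 kb with 29 protein-coding genes and held 24, or 3.51 per 100 kb. At the q-value limit of 1e-10 the type I cluster held 2 regions and the type II cluster 8. Autosomal windows of 100 kb held a median of 3 shared regions (quartiles 1 and 6), and 36.9% of them had a lower density than the type I cluster and 58.7% a lower density than the type II cluster. Among windows with at least 5 protein-coding starts, a background chosen after the data were seen, the median was 8, and 19.1% and 25.1% lay below. In the 468.0 kb between *Krt40* and *Krt33a*, filled by 41 other protein-coding genes, mostly of the keratin-associated proteins of hair, there were 2 shared regions (5.16 and 5.53, and 5.98 and 4.02).

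**Figure D3:**
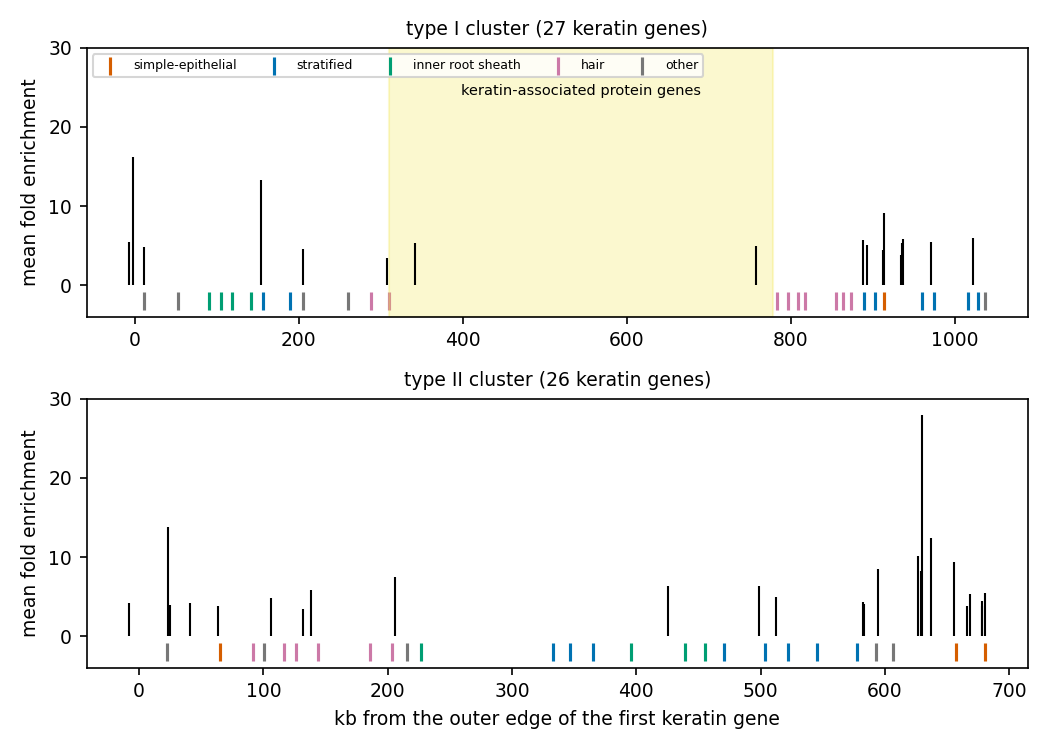
Mean fold enrichment of both replicates (y axis) of every shared region along the type I cluster (upper panel) and the type II cluster (lower panel), in kb from the outer edge of the first keratin gene; coloured ticks below mark the principal starts of keratin genes by class, and the yellow stretch holds the keratin-associated protein genes. Most regions were below 10, and the highest, at 27.9, stood near the *Krt8* and *Krt18* end of the type II cluster.

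Long stretches of keratin genes had no shared region. The longest, 219.2 kb on chromosome 15, held *Krt75*, *Krt6b*, *Krt6a*, *Krt5* and *Krt71*, and 2 peaks called in replicate 2 only. A stretch of 141.6 kb on chromosome 11 held *Krt24* and the inner root sheath genes *Krt25*, *Krt26*, *Krt27* and *Krt28* and no peak of either replicate. A stretch of 130.4 kb held 7 hair keratins from *Krt33a* to *Krt36*. Of the 28496 autosomal gaps of at least 20 kb between shared regions, 1139 were at least as long as the first, 2366 as the second and 2697 as the third. Counted by protein-coding genes, 139 held at least the 7 of the first, 229 at least the 5 of the second and 116 at least the 8 of the third. In the stretch from *Krt33a* to *Krt36* replicate 1 alone had a peak, of 7.33, at the end of *Krt31*, 3847 bp from its start, with no counterpart in replicate 2. It was the highest of the 8 peaks seen in 1 replicate only in the clusters and 10 kb on each side, 4 in each replicate, and the rest ranged from 3.02 to 5.98.

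Repeated sequence can hide peaks, because reads that map to several places are removed. The share of 32-base words in the 1 kb on each side of the principal start that occur once in the genome was lowest in *Krt6b* (65.7%), *Krt16* (66.0%), *Krt6a* (66.6%), *Krt81* (67.5%) and *Krt86* (73.4%), close copies of neighbouring genes. For *Krt5* it was 87.4% and for *Krt14* 85.4%, and for the simple-epithelial members *Krt8* 85.3%, *Krt18* 90.1% and *Krt7* 99.7%, while every word of the *Krt19* window occurred once. The part of repeated sequence in the absence of peaks was not tested.

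The highest signal of both clusters lay at no keratin promoter. In the 42.4 kb between the *Krt78* and *Krt8* genes there were 4 shared regions, and the strongest, chr15:101976740-101978388, reached 27.4 in replicate 1 and 28.4 in replicate 2. It is 1649 bp long, stands at percentile 94.3 of all shared regions, and lies 22.5 kb from the *Krt78* start and 26.1 kb from the *Krt8* start, outside every 10 kb window. No GENCODE M21 gene covers it, while RefSeq has a predicted longer *Krt78* transcript that spans it. Its neighbours had 11.4 and 8.80, 7.06 and 9.30, and, on the *Krt8* side, 11.1 and 13.6 at 19.7 kb from the *Krt8* start. Between the starts of *Krt8* and *Krt18*, 4 further regions were found, and the highest of their values was 5.98. Those at 2.6 and 2.2 kb from the *Krt18* start share the same replicate 1 peak, of 4.62. In the clusters and 10 kb on each side, the 6 regions with a mean above 10 included 3 of the 4 between *Krt78* and *Krt8*, with the others at *Krt80*, *Krt10* and *Smarce1*.

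**Figure D4:**
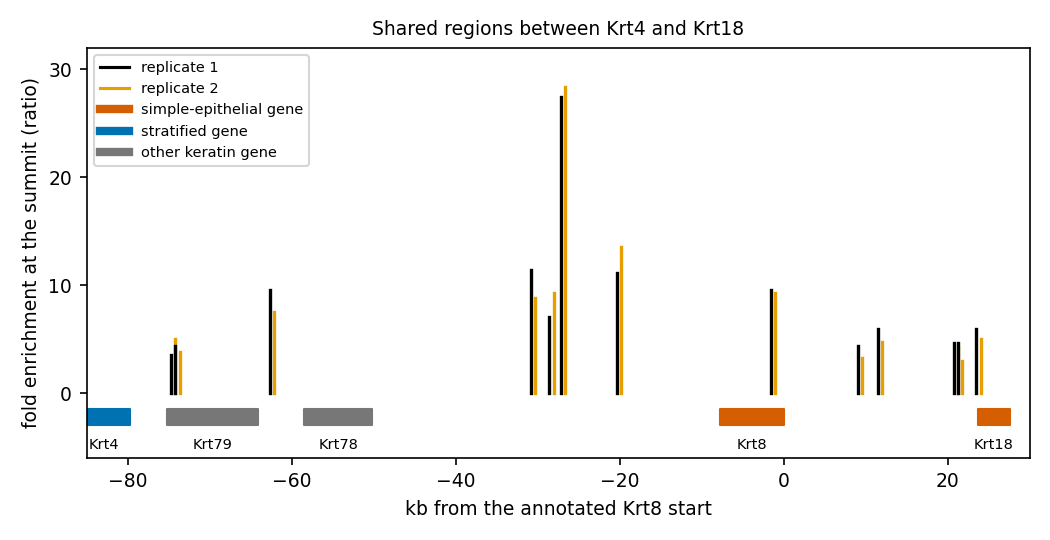
Fold enrichment at the summit (y axis, a ratio) of each shared region near *Krt8* and *Krt18*, in kb from the annotated *Krt8* start, with black lines for replicate 1, orange lines for replicate 2 and boxes for the keratin genes coloured by class. The strongest region, 27.4 and 28.4, stands between *Krt78* and *Krt8*, and the *Krt8* region, 9.51 and 9.30, lies just inside the gene.

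Near *Krt19* a weaker group of regions lay upstream of the gene, whereas the group between *Krt78* and *Krt8* lay downstream of *Krt8*. A group of 3 shared regions lay 21.3 to 22.9 kb upstream of its principal start, with 4.07 and 3.52, 5.70 and 5.03, and 4.62 and 7.04. No GENCODE gene covers them, and they lie in the non-coding RefSeq gene *Gm39022*. They were outside the 10 kb windows and were therefore not counted for any keratin. In all, 11 of the 42 regions lay outside every window. The median mean fold enrichment of the 42 regions was 5.37, against 6.28 for all autosomal shared regions, and 13 of the 42 were above the latter.

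Keratin promoters are poor in CpG dinucleotides. In the 1000 bases around the principal start, the ratio of observed to expected CpG was between 0.109 and 0.584 in all 53 members, and none reached 0.6, whereas 48.5% of all autosomal protein-coding genes did. Of the genes at or above 0.6, 94.7% had a shared region within 1 kb, and of those below it 37.4% had one. The keratins, all below 0.6, stood at 7 of 53 (13.2%) by the same principal starts, below the share of CpG-poor promoters in general. The median ratio of the 7 keratins with a region was 0.400 and that of the 46 without was 0.311. *Krt7* (0.566) and *Krt18* (0.547) were high among the members, *Krt19* (0.420) and *Krt8* (0.378) nearer the middle, and the hair keratin *Krt87*, at 0.584 the highest, had no region within 14538 bp of its start.

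**Figure D5:**
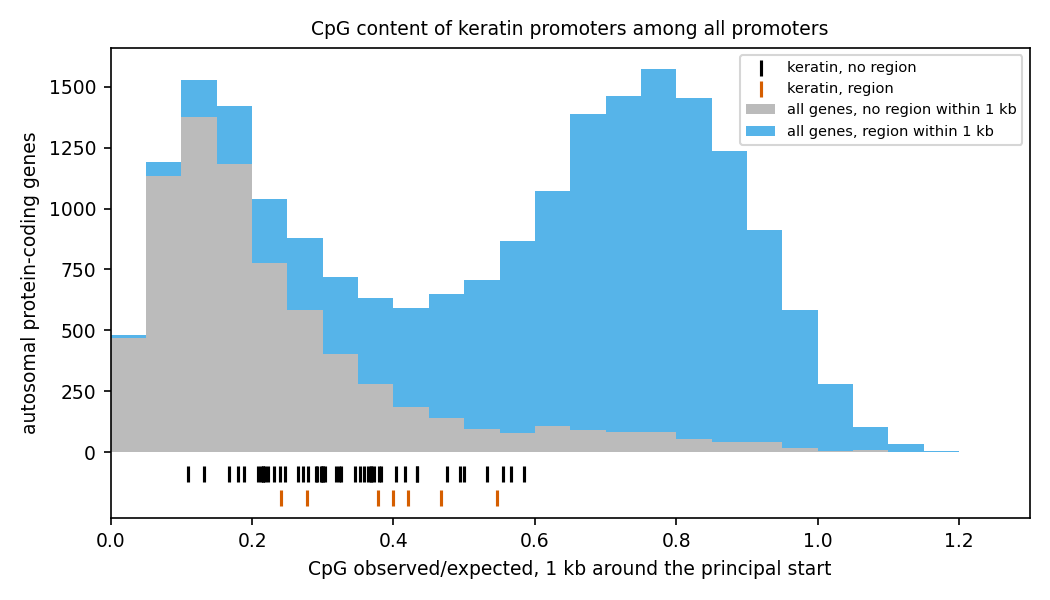
Number of autosomal protein-coding genes (y axis) by the ratio of observed to expected CpG in the 1 kb around the principal start (x axis), with blue for genes with a shared region within 1 kb and grey for genes without, stacked; ticks below the axis are the 53 keratins, orange with and black without a region. All keratins lie below 0.6, left of the mostly open CpG-rich promoters.

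Other filament genes, keratin linkers and epithelial regulators had a promoter region more often than keratins did. Of 15 other intermediate filament genes, 14 had a shared promoter region, with *Prph* (peripherin of neurons) the exception. *Vim* (vimentin of mesenchymal cells) reached 30.4 and 28.7, *Lmnb1* (lamin B1 of the nuclear envelope) 38.3 and 38.5, and *Des* (desmin of muscle) 15.2 and 11.1. Of 17 genes of keratin linkers and the junctions that anchor keratins, 13 had one, among them *Jup* (plakoglobin) with 42.9 and 38.7, *Pkp2* (plakophilin 2, of cardiac desmosomes) with 40.7 and 41.0 and *Dsp* (desmoplakin) with 11.7 and 9.55. Those without were *Dsg3*, *Evpl*, *Itgb4* and *Pkp3*, while the stratified-epithelium genes *Pkp1* (7.06 and 6.28), *Dsc3* (8.15 and 7.04) and *Ppl* (5.70 and 5.78) had one. Of 14 epithelial regulators and surface proteins, 12 had one, from *Grhl1* at 46.7 and 43.5 to *Grhl3* at 4.62 and 4.78, and *Cdh1* (E-cadherin) and *Ovol1* had none. The 3 lists thus stood at 93.3%, 76.5% and 85.7%, beside 68.8% over all genes and 20.8% of the keratins.

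Marker promoters of cell types that a whole heart can hold were read in the same way. Cardiomyocyte markers had a shared region in 10 of 10, with 12.0 to 29.1 in replicate 1, and endothelial markers in 6 of 6, with 4.89 to 16.8. Epicardial and mesothelial markers had one in 9 of 10, among them *Wt1* (16.0 and 16.8), *Tbx18* (24.2 and 22.4) and *Upk3b* (7.33 and 7.54), with *Msln* the exception, and *Krt19* is itself on that list. Blood markers had one in 3 of 4, without *Ptprc*. Of 12 stratified epithelium and surface ectoderm markers 7 had one, with *Cdh1*, *Dsg3*, *Krt5*, *Krt14* and *Sfn* without. *Krt5* and *Krt14* are themselves members of the keratin set. Of 6 foregut markers 5 had one, among them *Foxa2* (10.9 and 9.55), without *Cldn6*. Over all autosomal protein-coding genes the share was 68.8%, and the stratified and ectoderm list lay below it. With so few genes per list, the blood, stratified and foregut counts do not show whether those cells were present. An open promoter in bulk tissue does not tell which cells carried it, and fewer open cells cannot be told apart from less accessibility per cell. The part of each cell type in the keratin regions was not tested.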

How the data were processed

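The data are 2 peak lists of ATAC-seq from wildtype FVB hearts at E11.5, with 2 hearts per replicate. Per the study's methods and the submitters' processing notes, the authors trimmed single-end reads with Trim Galore 0.6.6, mapped them to GRCm38/mm10 with Bowtie2 2.4.2, used SAMtools 1.12 to drop duplicates and poorly mapped reads, and ran MACS2 on each replicate by itself with no local background. The deposited fold enrichment is a ratio at each summit over a genome-wide background. The deposited −log10 p-value and −log10 q-value are those of MACS2, and the authors' score is the −log10 q-value times 10 as a whole number. The largest p-value in the lists was 0.000476 in replicate 1 and 0.00104 in replicate 2, both smaller than the p-value limit that the methods state, and the shortest peaks were longer than the stated extension length. The limit in force is therefore unknown, and a gene without a region is one without a peak in these lists as deposited.

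Shared regions were the parts of replicate 1 peaks that overlapped a replicate 2 peak by at least 1 bp, joined where they touched, which gave 98924 regions, 96639 of them on autosomes. Of the peaks, 19.0% in replicate 1 and 17.2% in replicate 2 had no counterpart. A promoter was 1 kb on each side of any annotated start, and a locus the gene body with 10 kb on each side. For each gene the highest region at a promoter gave its fold enrichment. Named genes were all members with a shared promoter or locus region, the 4 simple-epithelial members and non-keratin genes whose start carried a counted region. Other members given with values (such as *Krt5*, *Krt6a*, *Krt6b*, *Krt31* and *Krt87*), those in stretches without a region, and genes picked from the comparison lists were chosen after their values were seen. The members, lists and motifs were chosen with earlier results of these data known. Principal starts were those tagged by APPRIS in GENCODE M21, and sequences came from RefSeq and GRCm38.p6. No test was made, because both samples form 1 group. The code for overlaps was tested on simulated data. Alternatives were limits on p and q, a reciprocal overlap of 50%, each replicate alone, other windows and other starts. Calculations used Python 3.11.15, NumPy 2.4.6 and pandas 2.3.3, and plots Matplotlib 3.10.9.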

Additional observations from a re-analysis of the deposited data

How the results depend on the processing

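The count of 4 simple-epithelial promoters stayed at 3 or 4 in every alternative run except the q-value limit of 1e-10, which left 2 of the 4 simple-epithelial and 2 of the other promoters, 4 in all (7.55%, against 63.7% of all genes), 2 simple-epithelial and 9 other loci, 11 in all (20.8%, against 75.2% of all genes), and 2 regions in the type I and 8 in the type II cluster. With the outermost start only, or with principal starts only, 4 other promoters and 7 in all had a region (13.2%, against 64.6% and 66.1% of all genes). With principal starts only, the median fold enrichment was 9.16 for simple-epithelial and 5.28 for other keratins. In the gene body alone, 14 other loci and 17 in all had a region (32.1%, against 73.6% of all genes). Without replicate 1 the median fold enrichment of other promoters was 5.53, and without replicate 2 it was 5.70. Among windows with at least 5 protein-coding starts, 19.1% had a lower density than the type I cluster and 25.1% a lower density than the type II cluster. The cause of these shifts was not tested, apart from fewer peaks or starts entering by construction. Besides these 19 values, 87 recomputed ones stayed within 1.5 times the count or within the replicate spread, and none reversed. No paired analysis was possible because there is a single group and no comparison between groups. The lists hold no read totals, so a keratin without a region was not detected at this depth, and is not shown to be closed.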

Other observations

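In the clusters and 10 kb on each side, peaks without a counterpart in the other replicate were 1 of 18 (replicate 1) and 0 of 17 (replicate 2) on chromosome 11 and 3 of 27 and 4 of 29 on chromosome 15, beside 19.0% and 17.2% over all peaks. Replicate 1 alone had a peak of 7.33 at the end of *Krt31*, of 5.98 at 6613 bp from the *Krt18* start, of 3.80 at 1348 bp from the *Krt83* start and of 3.53 at 16364 bp from the *Krt78* start. Replicate 2 alone had peaks of 4.02 near *Krt5*, of 3.77 near *Krt79*, of 3.52 at 15945 bp from the *Krt8* start and of 3.02 near *Krt72*.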
